A study of Mus musculus with 18 samples.

Results

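Limb bud patterning genes were followed in RNA-seq of whole mouse embryos that differed in Dnmt3b, a DNA methyltransferase that places new methyl groups on CpG sites. The set holds 10 genes chosen by symbol, of which 3 act in the limb ectoderm (Sp6, Sp8 and En1) and 7 in the limb mesenchyme (Fgf10, Hand2, Grem1, Tbx4, Tbx5, Pitx1 and Lmx1b). All 10 were among the 34244 named genes of the table, and all 10 were among the 19397 genes tested. Each genotype had 3 embryos of the FVB strain at E11.5, and 1 library was made from each embryo. Dnmt3b+/+ embryos were wild type. Dnmt3b-/- embryos carried a germline null allele derived from a Dnmt3b 2loxP allele, so the allele is present in every tissue. Dnmt3b CI/CI embryos carried a knock-in of a pair of amino acid substitutions in the catalytic site, made by CRISPR/Cas9 in zygotes, so the protein is still made from the endogenous locus, and it is designed to lack methyltransferase activity, although some residual activity is possible. Offspring of different founders were not kept apart, and only live embryos were analysed. The design asks what is altered when the whole protein is lost, what is altered when only its activity is lost, and where the mutants differ from each other.

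The limb bud is a pocket of mesenchyme under an ectodermal jacket, and at its tip the ectoderm forms the apical ectodermal ridge (AER). Fgf10 from the mesenchyme and Fgf8 from the ridge keep each other active, while Sonic hedgehog (Shh) from the posterior mesenchyme orders the digits and Lmx1b makes the dorsal side dorsal. Tbx5 marks and drives forelimbs, and Tbx4 with its activator Pitx1 does so in hindlimbs. These genes are also used elsewhere in the embryo: Hand2 and Tbx5 in the heart, Pitx1 and Hand2 in the mandible, Pitx1 in the pituitary, Tbx4 and Fgf10 in the lung, Sp8 in the forebrain, and En1 and Lmx1b in the midbrain and hindbrain. A level from a whole embryo sums all of these sites, and in such bulk samples fewer cells of a type and less RNA per cell cannot be told apart.

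Library totals were not given, and totals estimated from the FPKM values with GENCODE M21 exon lengths came to 38451729 to 49808776 reads. The reads worked back on genes came to 20430762 to 26367425 per library. Dnmt3b itself read 2.45, 3.12 and 3.33 FPKM where the label is Dnmt3b-/-, above the 2.25, 1.62 and 2.04 FPKM of Dnmt3b+/+. A sum over all exons is blind to a missing part, so the label was not checked by it, and these embryos are called labelled nulls 1 to 3, beside wild types 1 to 3 and CI/CI 1 to 3. Libraries also stood apart in the levels of some genes that mark body parts, and which parts each library represented was not tested. Myl2, a ventricular muscle gene, was at 0.0934 FPKM or less in wild types 1 and 3, in labelled null 1 and in CI/CI 3, and at 8.45 to 14.5 FPKM in the other 5. Emx1, a homeobox gene of the dorsal forebrain, was at 0.0212 FPKM in CI/CI 2 and at 1.57 to 4.56 FPKM elsewhere. Hoxc10, expressed in the posterior trunk and hindlimb, was at 1.07 and 0.735 FPKM in wild types 2 and 3 and at 2.58 to 8.58 FPKM in the other 7. These markers were picked after their values were seen, and they varied among embryos of 1 genotype, so they are given beside each gene whose other site they mark.

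FPKM divides the reads of a gene by its length and by the depth of the library, so levels of different genes can be set side by side. In wild types Pitx1 had the highest mean (15.2 ± 6.22 FPKM, SD, n = 3), followed by Hand2 (8.23 ± 1.39) and Lmx1b (5.58 ± 1.58), and the values of Hand2 and Lmx1b overlapped. En1 (3.16 ± 0.934 FPKM) and Tbx5 (2.51 ± 0.104 FPKM) formed the next pair, also overlapping. Sp8, Tbx4, Grem1 and Fgf10 followed with means between 0.918 and 1.70 FPKM, each overlapping its neighbour. Sp6 was lowest at 0.445 ± 0.0606 FPKM, below every Fgf10 value. Behind these values lay 64 to 187 reads per library for Sp6, 113 to 544 for Tbx4 and 1291 to 2674 for Pitx1. Among wild types the coefficient of variation went from 4.13% for Tbx5 to 49.7% for Tbx4, so the same fold change is harder to see for Tbx4 than for Tbx5.

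**Figure D1:**
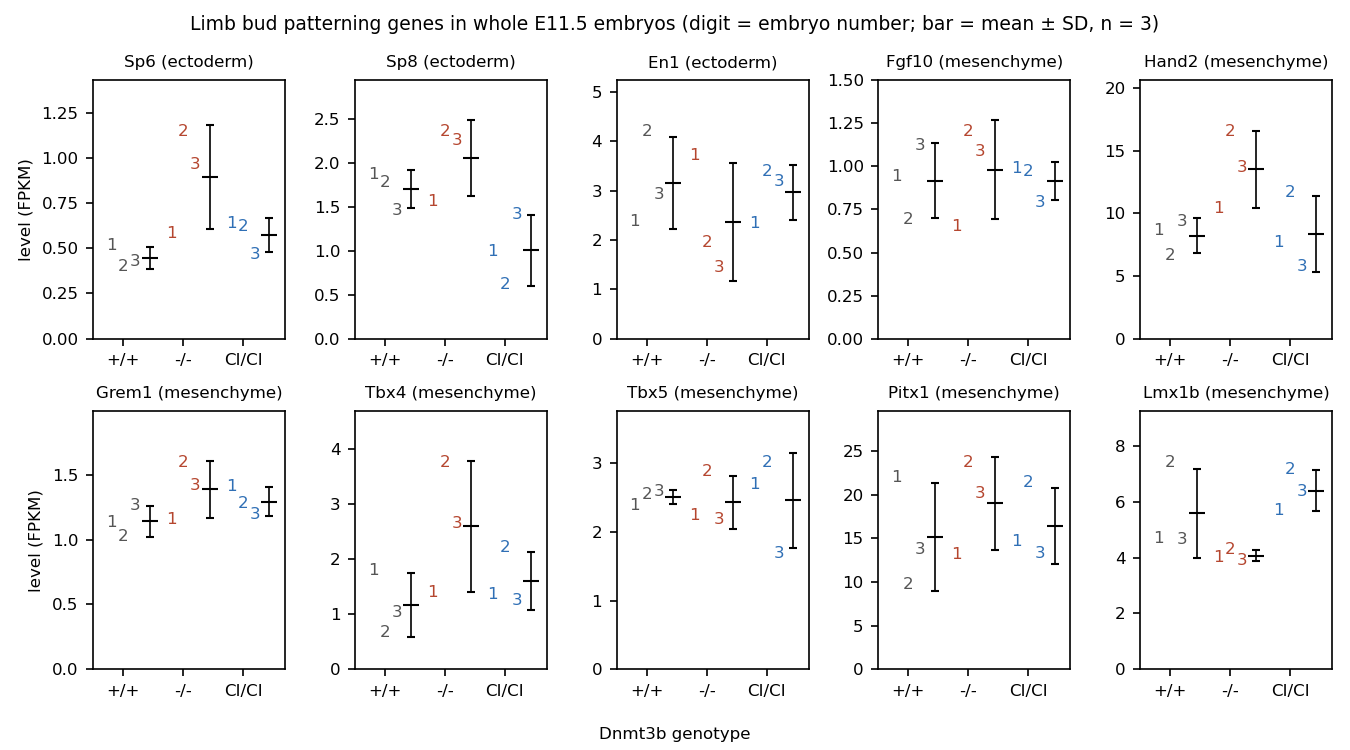
Level of each of the 10 genes (FPKM, linear axis from 0) in the 3 embryos of each Dnmt3b genotype, with each embryo drawn as its number and the mean ± SD (n = 3) beside it. Labelled nulls 2 and 3 lie above all wild types for Sp6, Sp8, Hand2, Grem1 and Tbx4, while embryo 1 of that genotype lies within or close to the wild-type values.

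On GRCm38 with GENCODE M21, the ectodermal genes lie at chr11:97013394-97024734 (Sp6, plus strand), chr12:118846329-118852576 (Sp8, plus strand) and chr1:120602418-120607992 (En1, plus strand). Fgf10 lies at chr13:118669791-118792115 and Hand2 at chr8:57320983-57324633, both on the plus strand, and Grem1 at chr2:113746164-113758646 on the minus strand. Tbx4 lies at chr11:85886422-85916097 and Tbx5 at chr5:119832668-119885219, both on the plus strand, with Pitx1 at chr13:55825051-55836192 and Lmx1b at chr2:33560965-33640511 on the minus strand. Of the 3841 exonic bases of Sp6, 3329 are also exon of Gm11532, annotated on the opposite strand. For Hand2 the shared length with Hand2os1 is 461 bases.

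Because Dnmt3b acts on CG dinucleotides, the RefSeq windows around transcription starts (GRCm38.p6, 300 bases, 250 upstream and 50 downstream) were searched for the letters CG, which read the same on both strands. Windows were present for 7 of the 10 genes. Over all 32851 windows the median was 7 CG, with quartiles of 3 and 20. Grem1 (28 CG), Lmx1b (24), En1 (23) and Hand2 (17) lay above the median, and Fgf10 (10) and Tbx4 (8) close to it. The Fgf10 window is at a start 44908 bases inside the GENCODE gene. Sp8 has 3 annotated starts, whose windows held 2, 32 and 10 CG. At least as many CG as in the densest Sp8 window were found in 9.52% of all windows, as many as in Lmx1b in 19.98%, as in Hand2 in 31.4% and as in Tbx4 in 48.6%. The upstream 250 bases are printed 5′ to 3′ for 4 of the genes with the larger differences between genotypes, with each CG in capitals. Sp6, Tbx5 and Pitx1 had no window. They are chr12:118846983-118847232 (Sp8, plus strand, at a start 904 bases inside the GENCODE gene), chr2:33641099-33641348 (Lmx1b, minus strand, at a start 587 bases upstream of the GENCODE gene), chr8:57320733-57320982 (Hand2, plus strand) and chr11:85896515-85896764 (Tbx4, plus strand, at a start 10343 bases inside the GENCODE gene).
Sp8: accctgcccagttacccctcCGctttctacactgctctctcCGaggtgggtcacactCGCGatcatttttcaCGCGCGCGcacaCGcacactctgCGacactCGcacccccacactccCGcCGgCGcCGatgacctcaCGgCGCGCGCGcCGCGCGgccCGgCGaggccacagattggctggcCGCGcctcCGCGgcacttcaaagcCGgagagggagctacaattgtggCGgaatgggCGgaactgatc
Lmx1b: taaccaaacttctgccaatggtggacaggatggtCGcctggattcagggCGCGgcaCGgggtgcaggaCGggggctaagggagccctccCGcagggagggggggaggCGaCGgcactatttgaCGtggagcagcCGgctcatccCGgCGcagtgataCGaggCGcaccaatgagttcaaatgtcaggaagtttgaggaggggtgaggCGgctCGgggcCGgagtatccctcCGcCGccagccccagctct
Hand2: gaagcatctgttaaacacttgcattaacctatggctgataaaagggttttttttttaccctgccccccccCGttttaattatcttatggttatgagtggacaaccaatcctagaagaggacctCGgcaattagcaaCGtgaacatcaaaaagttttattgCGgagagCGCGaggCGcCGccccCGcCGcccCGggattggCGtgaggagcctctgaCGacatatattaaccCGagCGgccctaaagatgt
Tbx4: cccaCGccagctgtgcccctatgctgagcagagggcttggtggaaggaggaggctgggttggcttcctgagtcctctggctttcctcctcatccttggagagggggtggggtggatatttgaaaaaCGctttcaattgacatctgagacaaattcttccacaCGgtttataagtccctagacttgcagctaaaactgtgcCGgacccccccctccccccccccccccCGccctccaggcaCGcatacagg
CG letters are dense in the Sp8 and Lmx1b stretches, while the Tbx4 window is near the median, but the Sp8 stretch is the densest of its 3, and the window at the GENCODE start of Sp8 held 2 CG. The letters are a description of the sequence, and methylation of these sites was not analysed here.

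Differences between genotypes were tested with limma on log2(FPKM + 0.1) over all 19397 genes, with Benjamini-Hochberg adjustment. A gene was called where it differed 2-fold or more and its adjusted p was under 0.05, and calls without the fold limit are given as calls at any fold. In the labelled nulls against wild types, limma called 0 of the 10 genes higher and 0 lower, where 1.07% of all genes were called higher and 3.38% lower. The count was also 0 with voom on reads worked back from the FPKM values. At any fold 1 gene was higher, Sp6, against a background of 9.41% higher and 16.4% lower. At an unadjusted p under 0.05, 3 genes (Sp6, Hand2 and Tbx4) were higher and 1 (Lmx1b) was lower, where the background was 14.6% and 25.4%. The median log2 difference of the 10 genes was 0.25, beside −0.07 over all genes tested. In CI/CI embryos against wild types, limma called 0 of the 10 genes in either direction, as did voom, beside 0.129% of all genes called higher and, at any fold, 0.0155% lower. At an unadjusted p under 0.05, Sp8 was lower and 0 genes were higher, where 2.55% and 2.7% of all genes were, and Sp8 was also the 1 gene with all its values below the wild types, beside 5.65% of all genes (7.53% lay above). The median was 0.09, beside 0.02 over all genes. Between the mutants, 1 gene (Sp8) was called higher in the labelled nulls than in CI/CI embryos and 0 lower, beside 1.1% and 4.32% of all genes. At any fold Sp8 was higher and Lmx1b lower, beside 9.7% and 18.2%, and the unadjusted counts were 3 higher and 1 lower, beside 15% and 26.9%. All 3 values of the labelled nulls lay above those of CI/CI embryos for Sp8 and below them for Lmx1b, beside 16.7% and 29.5% of all genes. Each pair of contrasts shares the embryos of 1 genotype, so they are not independent of each other.

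**Figure D2:**
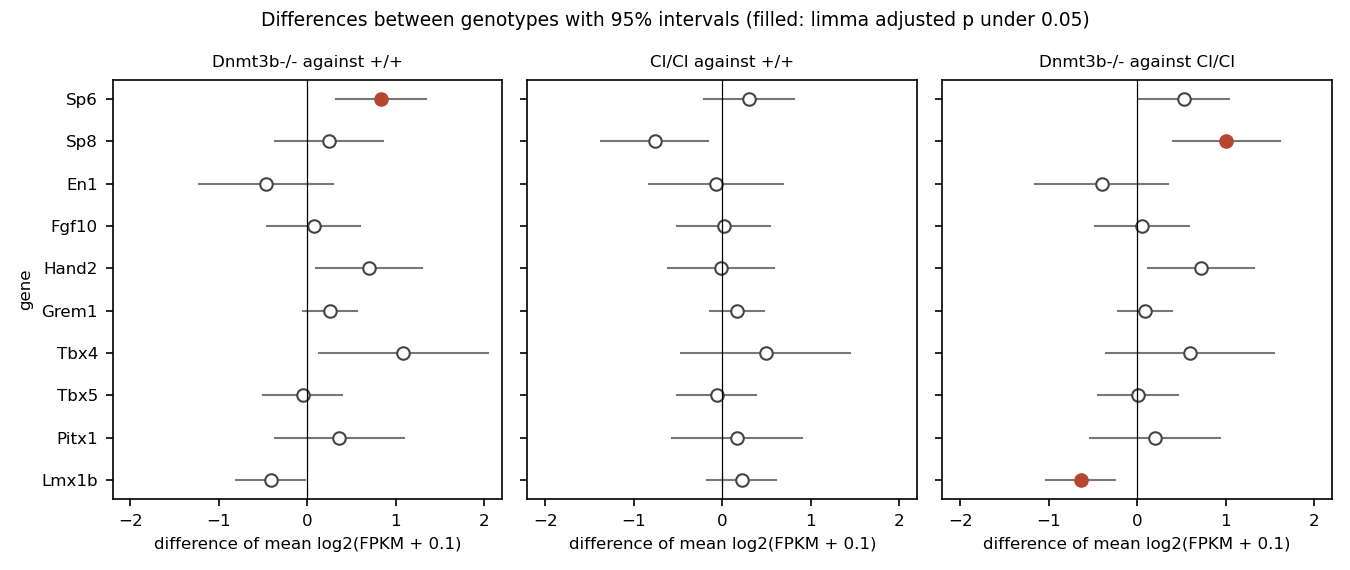
Difference of mean log2(FPKM + 0.1) for each gene in the 3 contrasts, with 95% intervals from limma, and filled points for an adjusted p under 0.05. Filled points are Sp6 in the first contrast (0.83) and Sp8 (1.01) and Lmx1b (−0.64) in the third, and most other intervals include 0.

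In the ectoderm, Sp6, a zinc-finger factor of the Sp family needed in the ridge, was measured at 0.513, 0.397 and 0.425 FPKM in wild types, at 0.581, 1.15 and 0.963 FPKM in the labelled nulls, and at 0.638, 0.619 and 0.467 FPKM in CI/CI embryos. The 3 values of the labelled nulls lay above all 3 wild-type values, embryo 1 by a small margin, and they overlapped those of CI/CI embryos. The log2 difference against wild types was 0.83 (SE 0.22, 95% interval 0.32 to 1.34, limma adjusted p = 0.0284), a fold of 1.78. It passed the adjusted limit but not the 2-fold limit. The adjusted p rose to 0.0761 and 0.0802 without wild type 2 or 3 and to 0.0942 and 0.0889 without labelled null 2 or 3, and fell to 0.00281 without embryo 1 of that genotype. Gm11532, on the opposite strand, had 62 to 183 reads per library, and in no library did its reads differ from those of Sp6 by more than 4. Its log2 difference was 0.78 (SE 0.21). The strandedness of the libraries is not stated, so reads of Sp6 and of Gm11532 cannot be told apart. Against wild types, CI/CI embryos differed in Sp6 by 0.30 (interval −0.21 to 0.81, limma adjusted p = 0.949).

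Sp8, the close relative that acts beside Sp6 in the ridge to keep Fgf8 on, had 1.87, 1.78 and 1.45 FPKM in wild types, 1.56, 2.35 and 2.25 FPKM in the labelled nulls, and 0.987, 0.613 and 1.42 FPKM in CI/CI embryos. All 3 CI/CI embryos were below the embryos of both other genotypes, embryo 3 by a narrow gap, and the other genotypes overlapped. The labelled nulls were higher than CI/CI embryos by 1.01 on the log2 scale (SE 0.27, interval 0.40 to 1.62, limma adjusted p = 0.0246). Against wild types the log2 difference was 0.24 (interval −0.36 to 0.85, adjusted p = 0.534 with limma) for the labelled nulls and −0.76 (interval −1.37 to −0.16, adjusted p = 0.869 with limma) for CI/CI. The forebrain expresses Sp8, and the summed level of 7 forebrain markers, among them Emx1, Six3, Dlx2 and Nkx2-1, was 36.9 to 41.99 FPKM in wild types, 31.2 to 44.1 FPKM in the labelled nulls and 26.7, 17.3 and 31.96 FPKM in CI/CI embryos. The embryo with the least Sp8, CI/CI 2, had the least of this list, with Emx1 at 0.0212 and Six3 at 0.0382 FPKM. Lhx5 ran against the other forebrain genes, with 10.2 FPKM in CI/CI 2 and 12.9 FPKM in both wild type 2 and labelled null 1, against 4.91 to 7.87 FPKM in the other 6. Without Lhx5, left out after its values were seen, the sums were 37.1, 25.5 and 31.6 FPKM in wild types, 18.3, 30.1 and 38.7 FPKM in the labelled nulls and 20.3, 7.11 and 24.1 FPKM in CI/CI embryos. Labelled null 1 then had less of the list than CI/CI 1 and 3, with more Sp8 than either. The median log2 difference of the list between CI/CI embryos and wild types was −0.995, and the part of the forebrain in the Sp8 values was not tested. Without CI/CI 2 the difference between the mutants was 0.73 (limma adjusted p = 0.059) and that against wild types was −0.48. The call between the mutants was also lost without CI/CI 1 (adjusted p = 0.0654 with limma) and without labelled null 2 (0.0829) or 3 (0.0804).

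**Figure D3:**
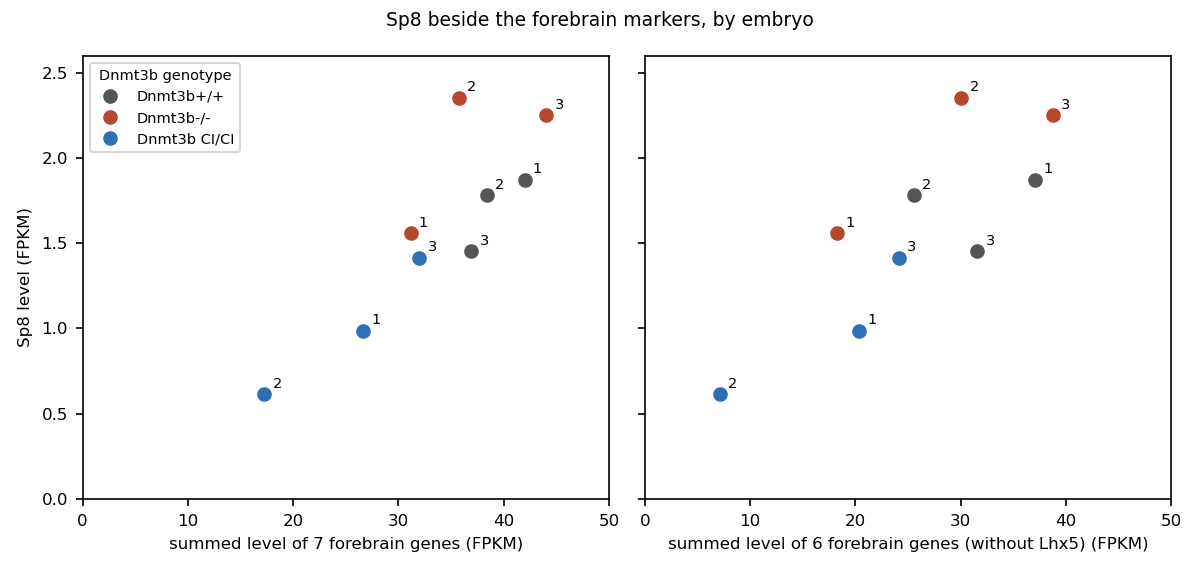
Sp8 level (FPKM) against the summed level of 7 forebrain marker genes (left, FPKM) and of the 6 without Lhx5 (right, FPKM) in the 9 embryos, numbered within genotype. CI/CI 2 sits lowest on all axes, at 0.613 FPKM of Sp8 and sums of 17.3 and 7.11 FPKM, while labelled null 1 lies to the left of CI/CI 1 and 3 on the right but above them in Sp8.

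En1, a homeobox gene that marks the ventral ectoderm and holds back the dorsal signal Wnt7a there, had 2.37, 4.19 and 2.91 FPKM in wild types, 3.71, 1.95 and 1.44 FPKM in the labelled nulls and 2.33, 3.38 and 3.19 FPKM in CI/CI embryos. The genotypes overlapped, and the highest values were those of wild type 2 and labelled null 1. The same pair of embryos led a list of 8 midbrain and hindbrain genes (En2, Pax2, Pax5, Wnt1 and others), with sums of 32.8 and 29.9 FPKM against 12.2 to 19.8 FPKM in the other 7. They also led a list of 5 genes of V1 spinal interneurons, another site of En1, with 25.8 and 25.3 FPKM against 9.40 to 22.2 FPKM. The part of these tissues in the En1 values was not tested. The log2 difference from wild types was −0.47 (interval −1.23 to 0.28, limma adjusted p = 0.324) for the labelled nulls and −0.07 (interval −0.82 to 0.69) for CI/CI. Without labelled null 1 the difference of the labelled nulls was −0.84 from wild types (limma adjusted p = 0.0359) and −0.77 from CI/CI embryos (adjusted p = 0.0463 with limma). Without labelled null 3 these differences were −0.18 (limma adjusted p = 0.733) and −0.12 (limma adjusted p = 0.838). The difference from wild types was −0.25 without wild type 2 (limma adjusted p = 0.648).

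In the mesenchyme, Tbx4, the T-box factor of the hindlimb, had 1.80, 0.667 and 1.03 FPKM in wild types, 1.39, 3.76 and 2.65 FPKM in the labelled nulls and 1.37, 2.21 and 1.25 FPKM in CI/CI embryos. Labelled nulls 2 and 3 held the highest values of all 9, while embryo 1 was below wild type 1. The log2 difference between these genotypes was 1.09 (SE 0.42, interval 0.14 to 2.04, limma adjusted p = 0.0875), the widest interval of the set. Without labelled null 1 it was 1.46 (limma adjusted p = 0.0216), without wild type 1 it was 1.43 (adjusted p = 0.0421 with limma), and over all alternatives the adjusted p went from 0.0216 to 0.258. For CI/CI the difference from wild types was 0.49 (interval −0.46 to 1.44).

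Pitx1, the homeobox gene upstream of Tbx4, had 22.0, 9.76 and 13.8 FPKM in wild types, 13.2, 23.7 and 20.2 FPKM in the labelled nulls and 14.7, 21.4 and 13.3 FPKM in CI/CI embryos. All genotypes overlapped, with log2 differences from wild types of 0.36 (interval −0.37 to 1.10) and 0.17 (interval −0.57 to 0.90). Wild type 2 was lowest for both Pitx1 and Tbx4. Hoxc10, the marker of posterior tissue, was at 8.04, 1.07 and 0.735 FPKM in wild types, so the embryo with the most Hoxc10 also had the most Tbx4 and Pitx1 among the wild types. It was at 3.34, 3.98 and 2.58 FPKM in the labelled nulls and at 5.67, 8.58 and 7.002 FPKM in CI/CI embryos, where Tbx4 was lower than in 2 of the labelled nulls. The 9 markers of the mandible and pituitary, where Pitx1 is also active, summed to 22.5 to 31.3 FPKM in wild types, 38.2 to 47.9 FPKM in the labelled nulls and 21.1 to 23.4 FPKM in CI/CI embryos. The 6 genes listed for lung and gut were Foxf1, Foxa2, Sox2, Irx1, Sftpc and Barx1, the lung being another site of Tbx4 and Fgf10. They summed to 54.6 to 60.5 FPKM in wild types, 67.4 to 85.2 FPKM in the labelled nulls and 39.8 to 48.1 FPKM in CI/CI embryos, with no overlap between genotypes. Barx1, a gene of both lists with its highest values in the labelled nulls, carried much of this. Without it, a choice made after its values were seen, the mandible and pituitary sums were 14.2 to 17.98 FPKM in wild types and 17.7 to 22.6 FPKM in the labelled nulls, and the lung and gut sums were 41.3 to 50.7 and 45.2 to 64.7 FPKM, so that these genotypes overlapped in both. The CI/CI sums without it, 12.4 to 13.5 and 32.1 to 40.2 FPKM, still lay below all others. Irx1, of the lung and gut list, was highest in wild type 2 and labelled null 1 (15.4 and 13.5 FPKM), the embryos with the most En1. Whether either list marks its tissues alone was not tested, and no background share was computed for gaps between sums. The part of these tissues in the Tbx4, Pitx1 and Fgf10 values was not tested.

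Tbx5, the T-box factor of the forelimb, was the steadiest gene in wild types, with 2.39, 2.54 and 2.59 FPKM. It had 2.23, 2.87 and 2.18 FPKM in the labelled nulls and 2.69, 3.01 and 1.69 FPKM in CI/CI embryos. The log2 differences from wild types were −0.05 (interval −0.50 to 0.40) and −0.06 (interval −0.51 to 0.39). Within each embryo, the ratio of Tbx4 to Tbx5 was 0.755, 0.263 and 0.399 in wild types, 0.625, 1.31 and 1.21 in the labelled nulls and 0.508, 0.736 and 0.739 in CI/CI embryos. Tbx4 exceeded Tbx5 in 2 of the 9 embryos, both labelled Dnmt3b-/-. The ratio of Pitx1 to Tbx4 set the genotypes apart more cleanly than either gene, at 12.2, 14.6 and 13.3 in wild types, 9.48, 6.29 and 7.62 in the labelled nulls and 10.7, 9.67 and 10.7 in CI/CI embryos. None of the 3 ranges overlapped, though labelled null 1 (9.48) lay close to CI/CI 2 (9.67). Other ratios were formed as well. That of Pitx1 to Tbx5 overlapped in every contrast. For Sp6 to Sp8 both mutants lay above wild types and overlapped each other, and for En1 to Lmx1b only CI/CI embryos and wild types were apart. The ratios were picked among the members after the levels were known, carry no test and have no background share.

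Hand2, the basic helix-loop-helix factor of the posterior limb bud that helps to start Shh, had 8.67, 6.67 and 9.35 FPKM in wild types, 10.4, 16.5 and 13.7 FPKM in the labelled nulls and 7.70, 11.7 and 5.76 FPKM in CI/CI embryos. Every labelled null was above every wild type, and the CI/CI embryos spread over both. The log2 difference between labelled nulls and wild types was 0.70 (SE 0.26, interval 0.10 to 1.30, limma adjusted p = 0.0821), and that between the mutants was 0.72 (interval 0.12 to 1.31, adjusted p = 0.0723 with limma). Of the genes tested, 15.1% had all 3 values of the labelled nulls above all wild-type values, and of the 10 limb genes Sp6 and Hand2 did. Hand2 is also a heart gene. The 12 heart markers summed to 21.2, 164 and 57.4 FPKM in wild types, 41.1, 165 and 98.2 FPKM in the labelled nulls and 139, 159 and 33.1 FPKM in CI/CI embryos. Within each mutant genotype Hand2 was highest where this sum was highest, but the wild-type embryo with 164 FPKM of heart markers had the lowest Hand2 of its genotype. The markers of the mandible and pituitary, given with Pitx1, summed to more in every labelled null than in any wild type, as Hand2 itself did, but not without Barx1. The part of the heart in the Hand2 and Tbx5 values, and of the mandible in those of Hand2, was not tested.

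Grem1, a secreted antagonist of bone morphogenetic proteins that links Shh to the ridge, had 1.03 to 1.26 FPKM in wild types, 1.15 to 1.59 FPKM in the labelled nulls and 1.19 to 1.41 FPKM in CI/CI embryos. Its log2 difference from wild types was 0.26 (interval −0.05 to 0.56) and 0.17 (interval −0.13 to 0.47), so a change as large as 2-fold lies outside both intervals. The ratio of Hand2 to Grem1 was 7.65, 6.50 and 7.42 in wild types and 8.99, 10.4 and 9.65 in the labelled nulls, with 5.47, 9.14 and 4.84 in CI/CI embryos. Fgf10, the mesenchymal signal that starts outgrowth, had 0.689 to 1.12 FPKM in wild types, 0.654 to 1.20 FPKM in the labelled nulls and 0.791 to 0.988 FPKM in CI/CI embryos. Its log2 differences from wild types were 0.07 (interval −0.46 to 0.60) and 0.01 (interval −0.51 to 0.54).

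Lmx1b, the LIM homeobox gene of the dorsal mesenchyme, had 4.70, 7.40 and 4.63 FPKM in wild types, 4.002, 4.29 and 3.90 FPKM in the labelled nulls and 5.67, 7.15 and 6.36 FPKM in CI/CI embryos. The labelled nulls were below all embryos of both other genotypes and lay close together (4.07 ± 0.204 FPKM, SD, n = 3). Against CI/CI the log2 difference was −0.64 (SE 0.17, interval −1.03 to −0.25, limma adjusted p = 0.0264), which is less than 2-fold. The adjusted p for this contrast was 0.0873 without CI/CI 2, 0.0721 without embryo 3, and 0.0594 and 0.0803 without labelled null 2 or 3 (limma, range over all alternatives 0.00285 to 0.0873). Against wild types the log2 difference was −0.41 (interval −0.80 to −0.02, adjusted p = 0.108 with limma). It was −0.19 without wild type 2, the embryo with the most Lmx1b and with the highest sum of midbrain and hindbrain markers, where Lmx1b is also expressed. Of all genes, 23.8% had their values of the labelled nulls below every Dnmt3b+/+ value, and of the 10 limb genes Lmx1b alone did.

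Read by embryo, the set did not move as 1 block. Labelled null 2 had the highest value of all 9 embryos for 7 genes (Sp6, Sp8, Fgf10, Hand2, Grem1, Tbx4 and Pitx1). Wild type 2 was lowest for 4 of these (Sp6, Grem1, Tbx4 and Pitx1) and highest for En1 and Lmx1b. Labelled null 3 was lowest for En1 and Lmx1b. Labelled null 1 differed from its group, and without it 2 genes (Sp6 and Tbx4) were called higher against wild types instead of 0, and at any fold 4 were higher and 1 (En1) was lower. The background also rose without it, to 1.3% of all genes called higher and 6.05% lower and, at any fold, to 12.2% higher and 23.4% lower.

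**Figure D4:**
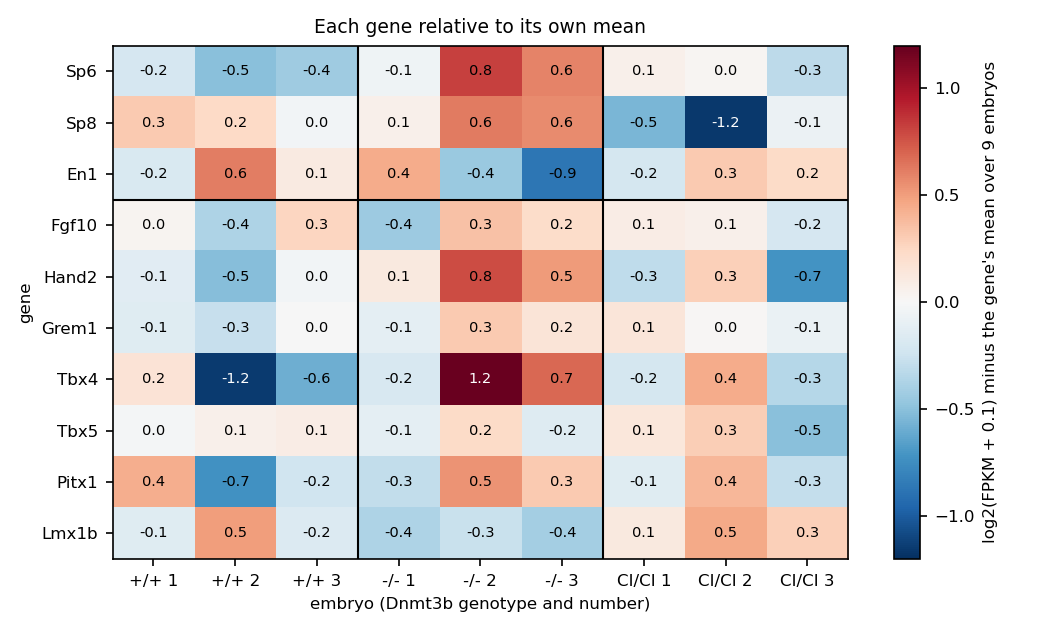
Each gene in each of the 9 embryos as log2(FPKM + 0.1) minus its mean over the 9, with red above and blue below that mean. Labelled null 2 is the highest embryo for 7 of the 10 genes, while En1 and Lmx1b are at their lowest in embryo 3 of that genotype.

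By the smallest root mean square difference of the centred log2 values over 9 embryos, among 148 listed genes, the pattern of Tbx4 was most like Hoxa11 (0.23) and Hoxd11 (0.30), and that of Hand2 most like Gsc (0.20) and Hoxd13 (0.21). Sp6 was closest to the limb mesenchyme gene Prrx2 (0.19), Sp8 to Lhx8 (0.23), Pitx1 to Asb4 (0.22) and En1 to Irx1 (0.097). Lmx1b was closest to Th (0.17), Grem1 to Etv5 (0.095), Fgf10 to Tbx18 (0.15) and Tbx5 to Meis2 (0.20). The median of this measure over the 148 genes was 0.45 to 0.77, by member.

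A further 77 genes of the limb bud were grouped as ridge and ectoderm, anterior-posterior axis, proximal-distal axis, other mesenchyme and cartilage, and 76 were tested. These lists were chosen with earlier results of these data known. They hold Fgf8, Shh, Matn1 and Matn4, which the authors reported as changed in these embryos, so the counts describe the lists and are no independent test. In the labelled nulls 4 of the 76 were called higher than in wild types and 6 lower, where 1.07% and 3.38% of all genes were. At any fold 12 were higher and 12 lower, beside 9.41% and 16.4% of all genes, so the lower share was close to that background. The median log2 difference of the 76 was 0.02. All 10 cartilage genes were lower at any fold, with a median of −0.85, and outside cartilage 12 of 66 were higher and 2 lower, to be read against the same shares of all genes. In CI/CI embryos 0 of the 76 were called in either direction by limma or by voom, with 3 higher and 6 lower at an unadjusted p under 0.05, beside 2.7% and 2.55% of all genes. Between the mutants 7 were called higher and 6 lower in the labelled nulls, beside 1.1% and 4.32% of all genes.

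Fgf8, the ridge signal that Sp6 and Sp8 maintain, had 0.830, 0.372 and 0.642 FPKM in wild types, 1.06, 3.43 and 2.85 FPKM in the labelled nulls and 0.462, 0.479 and 0.462 FPKM in CI/CI embryos. It rose by 1.74 on the log2 scale (SE 0.40, limma adjusted p = 0.0163) against wild types, and the call was lost without labelled null 2 or 3, with adjusted p of 0.0592 and 0.0589 (limma), and with only these genotypes in the model (limma adjusted p = 0.0522). Of the other FGF genes listed with the ridge, Fgf4 was at 0.130 FPKM or less and was not tested, and Fgf9 and Fgf17 differed by −0.36 and 0.43 with adjusted p of 0.0545 and 0.570 (limma). The ectodermal markers Trp63 and Wnt7a differed by −0.20 and 0.01 with adjusted p of 0.366 and 0.963 (limma). Shh, the signal that Hand2 helps to start, had 1.97, 1.66 and 2.22 FPKM in wild types, 4.29, 5.14 and 4.22 FPKM in the labelled nulls and 1.57, 2.47 and 1.77 FPKM in CI/CI embryos. All 3 labelled nulls were clear of the other 6, embryo 1 included, with a log2 difference of 1.18 (SE 0.17, limma adjusted p = 0.0029). Shh is also made by the notochord, floor plate and gut, which were not separated here.

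Sall4, a zinc-finger gene of the early limb, rose by 1.33 (SE 0.28, limma adjusted p = 0.0111), and Hoxd12, a posterior Hox gene of the distal limb, by 1.13 (SE 0.30, adjusted p = 0.0265 with limma). The Hoxd12 call was lost when any of wild types 2 and 3 or labelled nulls 2 and 3 was left out, with a pseudocount of 1 FPKM, without a filter (adjusted p = 0.0585 with limma) and with the replicate number as a block (adjusted p = 0.0616 with limma). Hoxd13 and Hoxa13, which pattern the digits, differed by 0.80 and 0.65 with adjusted p of 0.110 and 0.198 (limma). Alx4 and Gli3 of the anterior bud differed by 0.19 and 0.20, Prrx1 of the whole bud mesenchyme by 0.19 and Shox2 of its proximal part by 0.04, all with adjusted p of 0.234 or more (limma). Msx1, of the distal mesenchyme, was higher by 0.85 (adjusted p = 0.0281 with limma), under the 2-fold limit, and its adjusted p was over 0.05 without any of wild types 2 and 3 and labelled nulls 2 and 3, without a filter and with the replicate block (limma, up to 0.0937). On the other side, the cartilage matrix genes Matn4, Matn1 and Acan were lower, with log2 differences of −4.25, −3.92 and −3.31, and Gdf5, the joint signal, fell by 1.71. Matn4 had 10.05, 12.5 and 14.1 FPKM in wild types, 1.16, 0.396 and 0.319 FPKM in the labelled nulls and 13.7, 12.6 and 13.1 FPKM in CI/CI embryos. Cartilage also forms outside the limbs, and the sites were not separated. Islr fell by 1.29 and Bmp2, a gene outside the naming rule that is given here to complete the called genes, by 1.03, and the Bmp2 change was under 2-fold in 6 of the 19 alternatives. Between the mutants, Msx1 was called higher in the labelled nulls, by 1.26 (adjusted p = 0.0056 with limma), in all 19 alternatives. Rspo2, a secreted enhancer of Wnt signals, was higher by 1.12 (adjusted p = 0.00826 with limma) and Col2a1, the main cartilage collagen, had a log2 difference of −1.05 (adjusted p = 0.00878 with limma) in the same contrast, each under 2-fold in 2 of the 19.

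**Figure D5:**
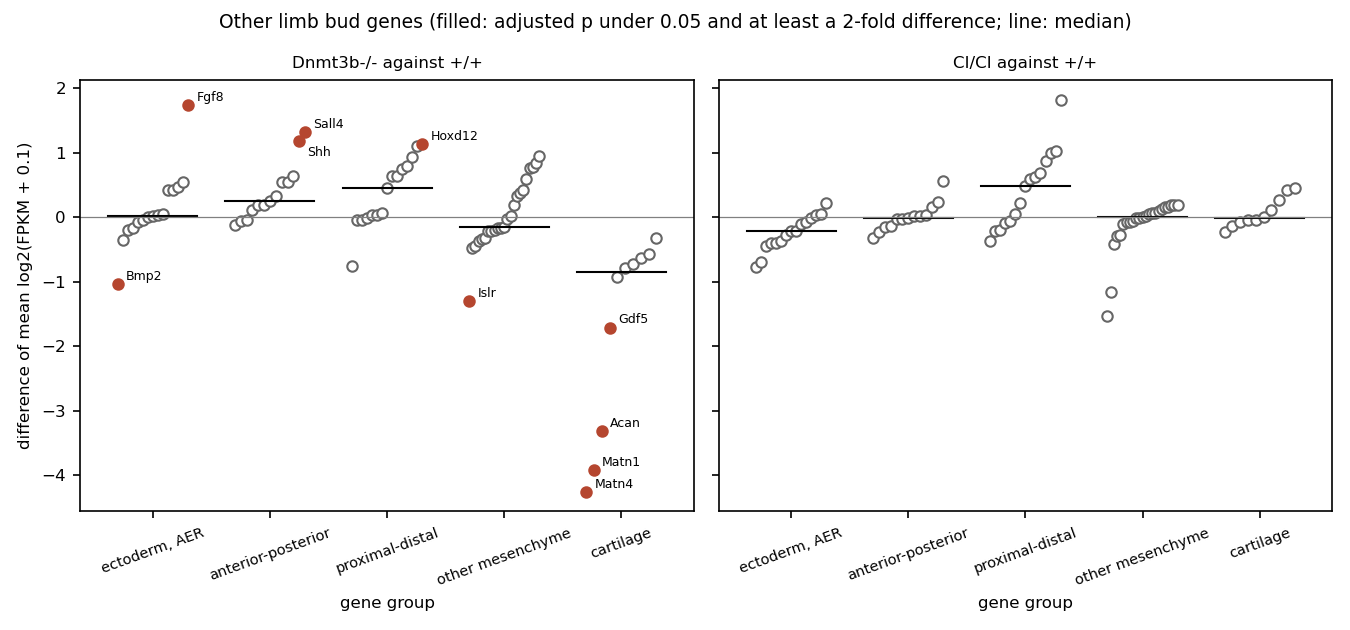
Difference of mean log2(FPKM + 0.1) from wild types for the other limb bud genes in 5 groups, with the median of each group as a line and filled points for called genes. In the labelled nulls 4 genes were called higher and 6 lower, with all cartilage genes below 0, and in CI/CI embryos 0 were called.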

How the data were processed

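Total RNA of 9 whole embryos at E11.5 was sequenced as paired-end reads. The authors aligned trimmed reads with STAR to mm10, kept reads of high mapping quality, counted genes with the RNA-seq tool of SeqMonk and deposited 1 table of linear FPKM values. Strandedness and annotation release are not given in the sources used here. Bisulfite and lymphoma samples were not analysed here.

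The 1 gene without a name was left out. The 19397 genes that reached 0.1 FPKM in 3 of 9 embryos entered limma 3.58.1 (R 4.3.3) as log2(FPKM + 0.1), with 3 genotypes in 1 model and a variance trend, and the pseudocount understates folds of low genes. The p-values measure the spread between embryos, whose litters are not given. Reads were worked back from the steps of the FPKM values for 34238 genes (99.98%, whole to within rounding) and used for depth and for the voom alternative. The procedures were tested on simulated data. The 10 members and all lists were chosen with earlier results of these data known, and 1 listed gene is not reported here. The other limb genes named were those called, limited to the 12 with the largest difference, and 12 set by symbol, and 8 lists of other sites are given by sums, counts and at most 3 called genes. Alternatives were 2 other pseudocounts, 2 other filters, 2 scalings, fewer samples, no trend, a block, voom and leaving out each embryo. Tables and figures were made with python 3.11.15, pandas 2.3.3 and matplotlib 3.10.9. Sequences are from RefSeq (GRCm38.p6).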

Additional observations from a re-analysis of the deposited data

How the results depend on the processing

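Of the 19 alternatives, 9 leave out 1 embryo each. In labelled nulls against wild types, the count of the 10 genes called higher went from 0 to 1 with quantile normalization and ranged from 0 to 2 when 1 embryo was left out, and at any fold it went from 1 to 0 without a filter, with a filter of 1 FPKM and with only the 2 genotypes compared, ranging from 0 to 4 with 1 embryo left out (lower at any fold 0 to 1). Other limb genes called higher went from 4 to 1 with a pseudocount of 1 FPKM and to 6 with median-of-ratios scaling and ranged from 2 to 10 with 1 embryo left out, the 10 without labelled null 1, and in CI/CI against wild types they ranged from 0 to 1. Between the mutants, genes called higher went from 1 to 0 with a pseudocount of 1 FPKM and without a filter (0 to 1 with 1 embryo left out), higher at any fold from 1 to 0 without a filter and to 2 with quantile normalization (0 to 3), lower at any fold from 1 to 0 without a filter (0 to 2), and other limb genes called higher from 7 to 3 with a pseudocount of 1 FPKM and to 10 with median-of-ratios scaling (4 to 13). More genes enter the adjustment without a filter, and Sp6 is below the filter of 1 FPKM. A pseudocount of 1 FPKM shrinks folds of low genes, and the cause of the other moves was not tested.

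With the replicate number as a block, the genes higher at any fold in labelled nulls against wild types went from 1 to 0, and between the mutants both counts of higher genes went from 1 to 0. Embryos with the same number did not deviate together (mean correlation −0.087 over 9 pairs, against 0.048 over 18 others), so the numbers were not taken to pair them.

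Signs turned only where differences were small. With median-of-ratios and quantile scaling, Fgf10 in CI/CI against wild types was −0.0034 and −0.0189, and Tbx5 in labelled nulls against wild types 0.0109 and 0.08. Quantile scaling gave 0.008 for Trp63 and 0.0078 for Lhx9, and voom −0.0008 for Wnt7a, all in labelled nulls against wild types. With 1 embryo left out, differences in labelled nulls against wild types ranged from −0.1006 to 0.3118 for Fgf10, −0.175 to 0.0152 for Tbx5, −0.0184 to 0.1075 for Shox2, −0.1227 to 0.1161 for Wnt7a and −0.294 to 0.1214 for Lhx9. In CI/CI against wild types they ranged from −0.2482 to 0.1496 for En1, −0.1573 to 0.1563 for Fgf10, −0.286 to 0.2186 for Hand2, −0.2225 to 0.1776 for Tbx5 and −0.1104 to 0.4709 for Pitx1, and between the mutants from −0.0966 to 0.2972 for Fgf10, −0.0121 to 0.2044 for Grem1 and −0.2308 to 0.1694 for Tbx5. Over all genes, 208 were called higher and 655 lower in labelled nulls, 272 and 391 with quantile scaling, 60 and 133 with a pseudocount of 1 FPKM, 251 and 1028 with 0.01 FPKM, 96 and 388 with a filter of 1 FPKM, 258 and 1034 with voom, 253 and 1174 without labelled null 1 and 197 and 427 without labelled null 3. Sp6 rested on 64 to 187 reads per library, the thinnest of the set.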

Other observations

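Lists of genes of the other sites were read against the shares of all genes called, which were 1.07% higher and 3.38% lower in the labelled nulls against wild types and 1.1% and 4.32% against CI/CI embryos. Of 7 tested genes of the mandible and pituitary list, 2 (Lhx8 and Barx1) were called higher in the labelled nulls than in CI/CI embryos, by 1.18 and 1.37 on the log2 scale. The Barx1 call held in all 19 alternatives, and that of Lhx8 was lost in 6 (limma adjusted p up to 0.0769). Lhx8 and Lhx6 of this list were lowest in CI/CI 2 (1.45 and 1.03 FPKM), the embryo with the least of the forebrain list. The part of the forebrain in their values was not tested. In the same list 4 were higher at any fold, beside 9.7% of all genes. Barx1, also on the lung and gut list of 6 genes, had 13.3, 8.31 and 15.2 FPKM in wild types, 20.5, 26.3 and 22.1 FPKM in the labelled nulls and 7.72, 11.0 and 7.96 FPKM in CI/CI embryos. Otx2, of the midbrain and hindbrain list, was lower in CI/CI embryos (0.715, 0.714 and 1.05 FPKM) than in the labelled nulls (5.02, 2.67 and 5.83 FPKM), with a log2 difference of 2.26 between them (SE 0.35, limma adjusted p = 0.0031). Wild types had 2.51, 4.44 and 1.99 FPKM, all above the CI/CI embryos (−1.67, limma adjusted p = 0.323) and overlapping the labelled nulls (0.59, limma adjusted p = 0.240). Of 13 surface ectoderm genes, Krt15 alone was called, lower by 1.05 in the labelled nulls than in wild types, and it was under 2-fold in 6 of the 19 alternatives. At any fold 3 of the 13 were lower in the labelled nulls than in wild types and 3 lower than in CI/CI embryos, beside 16.4% and 18.2% of all genes. Of 12 heart genes, Actn2 alone was called, lower by 1.32 in the labelled nulls than in CI/CI embryos. No gene of the 7 forebrain, 5 V1 interneuron or 7 sympathetic genes was called by limma in any contrast. At any fold, 1 V1 gene was lower in the labelled nulls than in wild types, and 1 V1 and 1 sympathetic gene were lower than in CI/CI embryos, beside 16.4% and 18.2% of all genes. At an unadjusted p under 0.05 the counts were 1 forebrain gene lower in CI/CI embryos than in wild types, 1 V1 gene lower in the labelled nulls than in wild types, and 2 V1 and 2 sympathetic genes lower in the labelled nulls than in CI/CI embryos, where 2.55%, 25.4% and 26.9% of all genes were lower in these contrasts. Among the other limb genes, Lhx9, a gene outside the naming rule, had 0.802, 0.981 and 0.882 FPKM in CI/CI embryos and 1.63 to 3.07 FPKM in the other 6 embryos, and its call between the mutants was lost in 5 of the 19 alternatives.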
